A study of Homo sapiens with 18 samples.

Results

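The STEAP family (six-transmembrane epithelial antigen of the prostate) was followed in LNCaP cells, an androgen-responsive line established from a human prostate cancer metastasis. Its members were taken by gene symbol: STEAP1, STEAP2, STEAP3 and STEAP4, 4 of the 34912 genes quantified, with 20 of the 164776 transcripts. Cells had been kept for 48 h in medium with 5% charcoal-stripped serum, which lacks most steroids, and then given the synthetic androgen R1881 at 10 nM or its vehicle, 96% ethanol, for 24 h. Each treatment was applied to cells transfected with a pool of non-targeting control siRNAs, a pool against KLF5 (siKLF5) or a pool against NFYA (siNFYA), which gives 6 groups. All groups shared the line, the steroid-deprived medium and a transfection, so no group stands for untransfected cells or for cells in full serum. Of the groups, 5 had 3 libraries, and siKLF5 with vehicle had 2 because its replicate 1 was not analysed here. The labels do not say whether the libraries of a group came from separate cultures, so the p-values measure the spread between these libraries, which may be technical.

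STEAP proteins are membrane enzymes that pass electrons from NADPH inside the cell, through flavin and heme, to ferric iron or cupric copper on the other side of the membrane. STEAP2, STEAP3 and STEAP4 carry the cytoplasmic NADPH-binding oxidoreductase domain, whereas STEAP1 lacks it and is thought to work in complexes with its relatives. STEAP1 and STEAP2 are known for high levels in prostate epithelium and STEAP1 is a target of antibody drugs, STEAP3 is the endosomal ferrireductase of the transferrin cycle and a p53 target, and STEAP4 is known from adipose tissue and inflammation and as an androgen-responsive gene of prostate cells. NFYA is the DNA-contacting regulatory subunit of the NF-Y complex, which binds CCAAT boxes, and KLF5 is a zinc-finger factor that binds GC-rich and CACCC elements.

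In the GENCODE release 29 annotation of GRCh38, STEAP1 (ENSG00000164647) lies at chr7:90154375-90164829 and STEAP2 (ENSG00000157214) at chr7:90167590-90238137, both on the plus strand and 2.76 kb apart as annotated. The STEAP2 transcripts STEAP2-201, STEAP2-202 and STEAP2-205 begin further downstream, in the windows printed below. STEAP4 (ENSG00000127954) lies on the minus strand of the same chromosome at chr7:88270892-88306891. STEAP3 (ENSG00000115107) lies on the plus strand at chr2:119223831-119265652. The antisense genes STEAP2-AS1, STEAP3-AS1 and AC003991.1 overlap members in the annotation and were not analysed here, and the labels do not say whether quantification was stranded. The near-identical paralog STEAP1B, which can share reads with STEAP1, stayed between 0 and 0.968 counts per 1000000 counts (CPM) in all 17 libraries.

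RefSeq (GRCh38.p14) promoter windows, 250 bases before to 50 bases after a start, were found for 4 of 4 members, with a pair of starts for STEAP2. They are printed for the 3 genes on chromosome 7 that changed below, because the silenced factors are known by the letters they bind. Capitals mark matches on either strand to CCAAT (the NF-Y box), GGGCGG (the GC box), CACCC (the CACCC box) or AGAACA (part of the androgen response element).
STEAP1, chr7:90154219-90154518, plus strand: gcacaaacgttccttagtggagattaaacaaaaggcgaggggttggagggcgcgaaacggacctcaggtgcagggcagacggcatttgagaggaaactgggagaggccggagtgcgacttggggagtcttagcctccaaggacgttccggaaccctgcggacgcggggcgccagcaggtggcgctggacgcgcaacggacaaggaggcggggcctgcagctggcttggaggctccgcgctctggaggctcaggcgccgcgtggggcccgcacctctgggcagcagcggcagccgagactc
STEAP2 upstream start, chr7:90211490-90211789, plus strand: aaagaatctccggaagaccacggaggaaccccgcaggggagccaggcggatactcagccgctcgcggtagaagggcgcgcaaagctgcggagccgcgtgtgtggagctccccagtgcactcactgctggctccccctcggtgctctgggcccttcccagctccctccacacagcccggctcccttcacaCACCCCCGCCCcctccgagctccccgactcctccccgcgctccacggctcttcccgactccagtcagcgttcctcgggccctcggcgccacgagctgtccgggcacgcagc
STEAP2 downstream start, chr7:90213570-90213869, plus strand: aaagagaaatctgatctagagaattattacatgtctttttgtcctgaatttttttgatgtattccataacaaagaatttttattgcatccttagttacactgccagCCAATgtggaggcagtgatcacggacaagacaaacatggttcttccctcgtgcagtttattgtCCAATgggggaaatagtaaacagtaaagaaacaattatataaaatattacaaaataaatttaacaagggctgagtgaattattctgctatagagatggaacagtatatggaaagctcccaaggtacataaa
STEAP4, chr7:88306845-88307144, minus strand: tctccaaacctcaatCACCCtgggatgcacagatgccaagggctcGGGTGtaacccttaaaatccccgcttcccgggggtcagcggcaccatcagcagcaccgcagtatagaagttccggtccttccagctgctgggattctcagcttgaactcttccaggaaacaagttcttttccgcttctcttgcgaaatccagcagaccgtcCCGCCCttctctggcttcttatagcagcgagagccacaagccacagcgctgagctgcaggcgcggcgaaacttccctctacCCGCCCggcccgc
Distances below count from the RefSeq start, which can differ from the GENCODE start. The STEAP1 window held none of the 4 motifs. STEAP1-201 starts in GENCODE at chr7:90154375, before the RefSeq start of that window. The upstream STEAP2 window held a CACCC box 61 bases before the start and a GC box 56 bases before it and directly adjoining it. The downstream STEAP2 window, where the transcript STEAP2-205 begins, held CCAAT at 144 and at 81 bases before the start. The STEAP4 window held GC boxes 44 bases before and 38 bases after the start, and CACCC boxes 235 and 205 bases before it. The STEAP3 window held GC boxes 160, 79 and 45 bases before the start and CACCC boxes 203 and 41 bases before it, the last of which overlaps a GC box. Of 35116 promoter windows of this length, 34.6% held CCAAT, 45.0% GGGCGG, 59.9% CACCC and 14.8% AGAACA. No window of a member held AGAACA. These are matches of letters in a window and say nothing of binding.

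Libraries held between 4416653 and 6872421 estimated counts over genes. NFYA itself stood at 68.3, 71.2 and 73.3 CPM in control vehicle libraries and at 48.0, 44.0 and 46.7 CPM with siNFYA, a log2 change of -0.62 (SE 0.0631, n = 3 each). KLF5 stood at 27.9, 25.3 and 31.9 CPM in control R1881 libraries and at 11.8, 11.4 and 15.2 CPM with siKLF5, a log2 change of -1.15 (SE 0.163). In vehicle KLF5 was low in both groups, at 4.16 ± 0.837 CPM in controls and 1.98 ± 1.48 CPM with siKLF5 (SD). The siKLF5 vehicle libraries stood at 0.932 and 3.03 CPM, against 3.26 CPM in the lowest control vehicle library. The difference did not pass the edgeR test at adjusted p = 0.149. All 10 luminal prostate markers, among them KLK3, KLK2 and HOXB13, reached 1 CPM in a group. Retained-intron transcripts took 1.96 to 2.23% of estimated counts in control libraries, 2.28 to 2.68% with siKLF5 and 2.56 to 3.05% with siNFYA. Mitochondrial genes took 1.77 to 2.07% in control vehicle and 1.33 to 1.44% in control R1881, 2.46 to 2.96% and 2.20 to 2.82% with siKLF5, and 2.60 to 3.00% and 2.54 to 2.62% with siNFYA. The siNFYA vehicle library 3 stood apart in AC010970.1, at 2.85% of its counts against at most 0.424% in every other library.

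**Figure D1:**
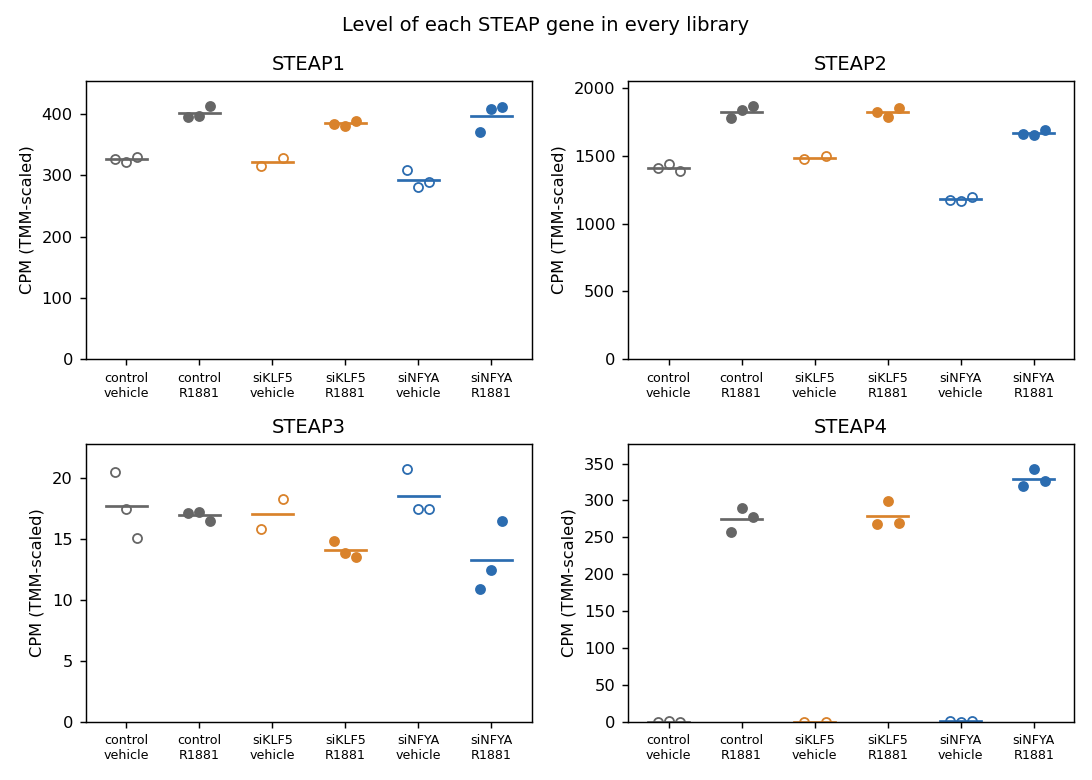
Level of STEAP1, STEAP2, STEAP3 and STEAP4 in every library, in CPM after TMM scaling, by siRNA and treatment, with open points for vehicle, filled points for R1881 and lines for group means. STEAP4 is near 0 in all vehicle libraries and between 257 and 343 CPM in all R1881 libraries, and the lowest STEAP2 libraries are the 3 of siNFYA with vehicle.

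Per length, in TPM, STEAP1 and STEAP2 made up nearly the whole family. TPM add up to the same total in every library and carry no TMM scaling, unlike the CPM printed here. In control vehicle libraries STEAP1 stood at 472 TPM and STEAP2 at 431 TPM, and they ranked 268 and 300 by TPM among the 12601 genes tested. STEAP3 stood at 7.02 TPM and ranked 9911, and STEAP4 stood at 0.101 TPM and ranked 12573. With R1881 in control cells the TPM values were 516 for STEAP1, 508 for STEAP2, 84.4 for STEAP4 and 7.19 for STEAP3, so STEAP4 overtook STEAP3 and reached rank 2140. The STEAP1 to STEAP2 ratio of TPM was between 0.993 and 1.18 as a mean in each of the 6 groups, so their order by length-scaled level was not the same everywhere: STEAP2 was above STEAP1 only in the mean of siKLF5 with R1881.

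Summed over the family, the level was 910 ± 7.91 TPM (SD, n = 3) in control vehicle and 1116 ± 29.1 TPM in control R1881. With siNFYA it was 792 ± 23.1 TPM in vehicle and between 1021 and 1078 TPM in the 3 R1881 libraries. With siKLF5 it was 941 ± 0.518 TPM (n = 2) in vehicle and 1069 ± 21.8 TPM in R1881. STEAP4 supplied 7.55% of the sum in control R1881 libraries, 7.72% with siKLF5 and 9.07% with siNFYA, and at most 0.0238% as a mean in any vehicle group.

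**Figure D2:**
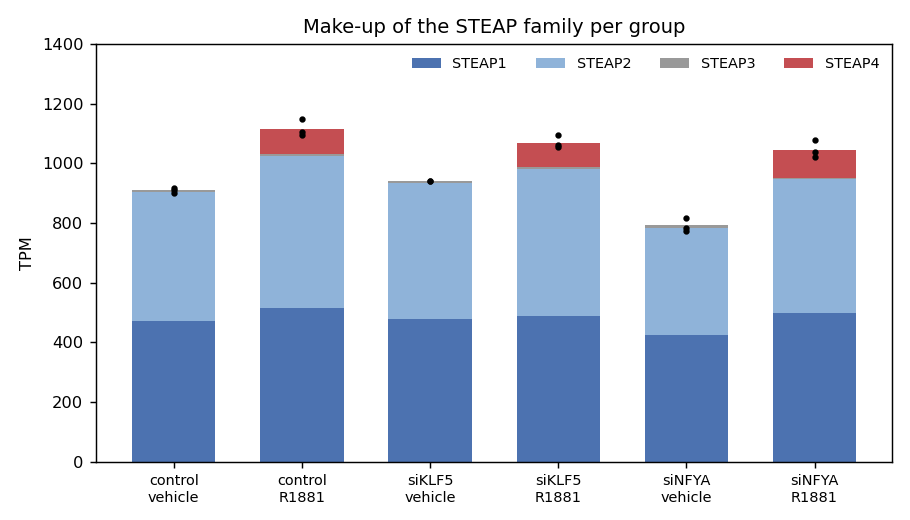
Mean TPM of the 4 STEAP genes, without TMM scaling, stacked by group, with the family sum of each library as a black dot. STEAP1 and STEAP2 fill most of each bar, and the STEAP4 segment is visible only with R1881.

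STEAP4, an iron and copper reductase of the plasma membrane and endosomes, was near 0 counts in vehicle and abundant with R1881 under each siRNA. It was counted 0, 5 and 1 times in the 3 control vehicle libraries (6 in all) and 1362, 1548 and 1426 times with R1881. Scaled, the control R1881 libraries stood at 257, 290 and 277 CPM. No vehicle library came near any R1881 library, the highest vehicle value being 1.44 CPM in siNFYA library 1. A library with 0 counts allowed a level of up to 0.486 CPM (control vehicle library 1) and 0.562 CPM (siNFYA vehicle library 2), which is 3 counts over the unscaled total and covers counting error only.

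The ratio of summed scaled counts, R1881 over vehicle, was 936 in control cells, with a 95% exact counting interval of 430 to 2553. It was 532 with siNFYA (289 to 1110, from 10 vehicle counts) and 2068 with siKLF5 (572 to 17083, from 2 vehicle counts). The 3 intervals overlap one another, and they cover counting error only. In the edgeR quasi-likelihood test STEAP4 rose with adjusted p = 3.77e-24 in control cells, 5.19e-24 with siNFYA and 5.52e-22 with siKLF5. The fitted log2 change depends on the prior count and is no bound: in control cells it was 9.76, and 11.47 without vehicle library 2, which held 5 of the 6 vehicle counts. With siNFYA it was 9.00, and 10.60 without vehicle library 1 and 8.37 without vehicle library 2. STEAP4 still passed with any 1 library left out. By fitted log2 change with all libraries it ranked 2 of 12601 genes in control cells, 3 of 12601 with siNFYA and 1 of 12733 with siKLF5. STEAP4 is also known from adipocytes and macrophages. Of 5 adipocyte markers 0 reached 1 CPM in a group, and their sum stayed between 0 and 0.936 CPM. Of 8 macrophage and blood markers 1, CD68, reached 1 CPM, and MARCO, C1QA and HBB were at 0 in all libraries. The macrophage and blood sum was 3.86 to 5.62 CPM in control vehicle and 8.25 to 8.56 CPM in control R1881. Among other markers, 3 of 7 fibroblast (COL1A1, COL3A1, ACTA2) and 1 of 5 basal genes (ITGA6) reached 1 CPM in a group. So did 1 of 4 endothelial (VWF) and 1 of 3 hepatocyte genes (TTR). Whether other cells had a part in the STEAP4 level was not tested.

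STEAP1 and STEAP2 rose modestly with R1881 under each siRNA in edgeR. STEAP1 stood at 326, 322 and 331 CPM in control vehicle libraries and at 395, 397 and 413 CPM with R1881, so the groups did not overlap. STEAP2 stood at 1414, 1442 and 1387 CPM in control vehicle and at 1779, 1837 and 1867 CPM with R1881, again without overlap. The log2 change in control cells was 0.30 (SE 0.0405, adjusted p = 6.01e-07) for STEAP1 and 0.37 (SE 0.0326, adjusted p = 3.93e-10) for STEAP2 in the edgeR test. With STEAP4, 3 of 4 members rose in control cells and 0 fell, where 32.1% of all 12601 genes tested rose and 30.8% fell. A call for STEAP1 or STEAP2 was therefore common among genes: by log2 change STEAP1 ranked 3399 and STEAP2 ranked 2936 from the top of the 12601 genes.

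In siNFYA cells STEAP1 went from 309, 280 and 289 CPM to 370, 407 and 412 CPM, and STEAP2 from 1172, 1171 and 1195 CPM to 1665, 1657 and 1692 CPM. The log2 changes were 0.43 (SE 0.0420) and 0.50 (SE 0.0329), with adjusted p = 2.00e-09 and 1.30e-12 in edgeR. In siKLF5 cells STEAP1 went from 314 and 328 CPM to 384, 381 and 389 CPM, and STEAP2 from 1475 and 1497 CPM to 1823, 1788 and 1853 CPM. There the log2 changes were 0.26 (SE 0.0390) and 0.29 (SE 0.0335), with adjusted p = 4.64e-06 and 8.09e-08 in edgeR. Each R1881 library was above each vehicle library of the same siRNA for both genes by CPM. By limma on log2 TPM the siKLF5 changes were 0.034 for STEAP1 (adjusted p = 0.481) and 0.11 for STEAP2 (adjusted p = 0.0637), and neither passed. By TPM the siKLF5 groups of STEAP1 overlapped, at 472 and 483 TPM in vehicle and 489, 481 and 497 TPM with R1881. With siNFYA 3 of 4 members rose and 1 fell, where 31.2% of the 12601 genes rose and 31% fell, and with siKLF5 3 of 4 rose and 0 fell, where 30.7% of 12733 rose and 28.4% fell.

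The size of the STEAP1 and STEAP2 rise depended on the scaling. With library totals in place of TMM the median log2 change of all genes went from -0.01 to -0.25 in control cells, and the share of rises among called genes from 51.1% to 28.2%. With siNFYA the calls went from 3926 higher and 3902 lower to 2431 and 6205, and with siKLF5 from 3911 and 3622 to 2331 and 5993. Under those totals STEAP1 was at 0.061 in control cells and 0.026 with siKLF5, and STEAP2 at 0.061 with siKLF5, and none of these 3 values passed. STEAP2 still passed in control cells at 0.13, and with siNFYA STEAP1 passed at 0.21 and STEAP2 at 0.28. Under either scaling both genes lay above the median of all genes. TPM carry no TMM scaling, so the limma results on log2 TPM and the results with library totals are not independent of each other.

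STEAP3, which reduces iron in the endosome, was low and did not rise with R1881. In control cells it stood at 20.5, 17.5 and 15.1 CPM in vehicle and 17.2, 17.2 and 16.5 CPM with R1881, a log2 change of -0.063 (SE 0.133, adjusted p = 0.699) with overlapping groups. In siNFYA cells it stood at 20.8, 17.5 and 17.5 CPM in vehicle and 10.9, 12.4 and 16.5 CPM with R1881. That was a fall by 0.50 on the log2 scale (SE 0.145, adjusted p = 0.00447, edgeR), without overlap, and STEAP3 was the 1 of 4 members that fell there. In siKLF5 cells it stood at 15.8 and 18.3 CPM in vehicle and 14.8, 13.9 and 13.6 CPM with R1881, also without overlap, and the log2 change of -0.27 did not pass (adjusted p = 0.0961). With library totals the values were -0.30 in control cells and -0.51 with siKLF5, and both passed (adjusted p = 0.0497 and 0.00276).

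**Figure D3:**
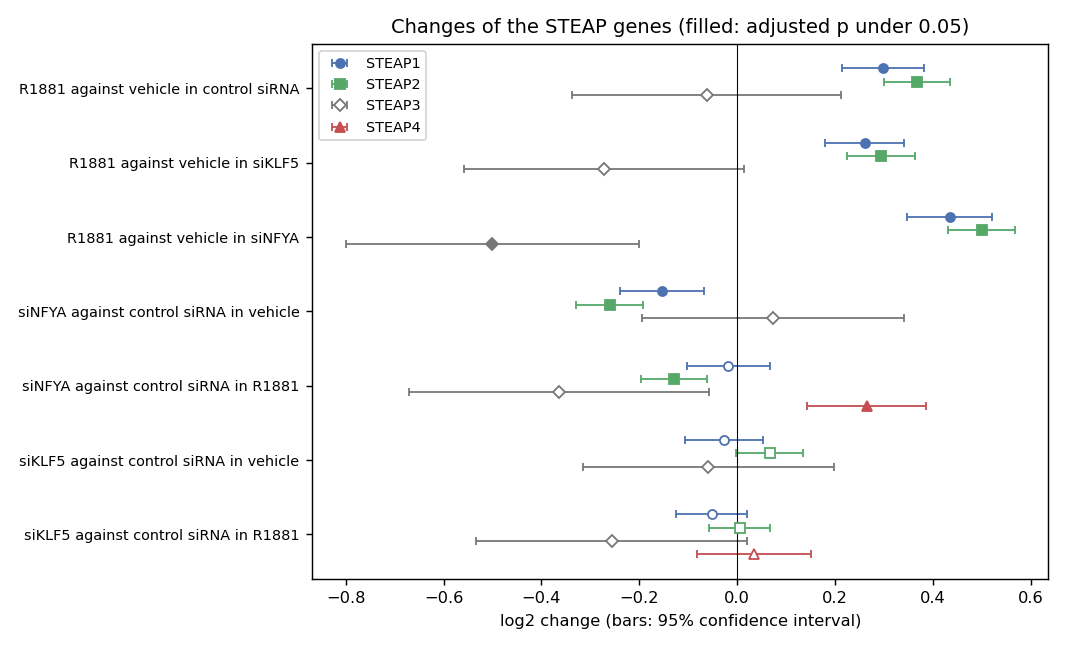
Log2 changes of the STEAP genes with 95% confidence intervals for R1881 within each siRNA and for each knockdown within each treatment, filled where the edgeR adjusted p is under 0.05. STEAP1 and STEAP2 are above 0 in all 3 R1881 comparisons, STEAP2 is below 0 in both siNFYA comparisons, and STEAP4 is left out where a group was near 0 counts.

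In vehicle STEAP2 was lower with siNFYA than with control siRNA, and so was STEAP1, by a smaller log2 change. The 3 siNFYA vehicle libraries of STEAP2, at 1172, 1171 and 1195 CPM, all lay below the lowest control vehicle library, 1387 CPM. STEAP2 fell by 0.26 on the log2 scale (SE 0.0328, adjusted p = 8.01e-06, edgeR), or 16.5%, and ranked 983 from the bottom of the 12601 genes. STEAP1 fell by 0.15 (SE 0.0417, adjusted p = 0.0145), with siNFYA libraries at 309, 280 and 289 CPM below all control libraries. The STEAP1 call was lost without control vehicle library 3 (-0.14, adjusted p = 0.0533) and without siNFYA vehicle library 2 (-0.12, adjusted p = 0.113), and by limma on log2 TPM at -0.15 (adjusted p = 0.0697). STEAP3 was at 0.073 (SE 0.130, adjusted p = 0.772) with overlapping groups. STEAP4 had 10 counts over 3 siNFYA vehicle libraries, 8 of them in library 1, against 6 in control vehicle, a ratio of 2.12 with a counting interval of 0.697 to 7.08. Thus 2 of 4 members fell and 0 rose, where 6.79% of the genes fell and 6.67% rose. The retained-intron and mitochondrial shares given above were also higher in all siNFYA libraries than in the control libraries of either treatment, and their part in the siNFYA results was not tested. In whole-culture RNA a lower level in each cell and fewer cells with the transcript cannot be told apart.

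With R1881 present, STEAP2 stayed lower in siNFYA cells and STEAP4 was higher. STEAP2 stood at 1665, 1657 and 1692 CPM against 1779, 1837 and 1867 CPM in control cells, and it fell by 0.13 on the log2 scale (SE 0.0326, adjusted p = 0.0190, edgeR), that is, it fell by 8.51%. STEAP4 stood at 320, 343 and 326 CPM against 257, 290 and 277 CPM, a rise of 0.26 (SE 0.0588, adjusted p = 0.00706), or 20.1%. Neither gene's groups overlapped. STEAP3 stood at 10.9, 12.4 and 16.51 CPM against 17.2, 17.2 and 16.53 CPM in control cells, so its groups were barely apart. The share of all genes without overlap is not given here. The STEAP2 call was lost without control R1881 library 2 (-0.13, adjusted p = 0.0657) or 3 (-0.11, adjusted p = 0.101), and the STEAP4 call without control R1881 library 1 (0.22, adjusted p = 0.0716). By limma on log2 TPM, STEAP4 was at 0.17 and did not pass. STEAP1 was at -0.018 (SE 0.0408, adjusted p = 0.867) with overlapping groups, and STEAP3 was at -0.36 (SE 0.149, adjusted p = 0.165), which did not pass. So 1 of 4 members rose and 1 fell, where 2.63% of the genes rose and 3.33% fell. Both siNFYA comparisons and the R1881 comparison in control cells share control libraries.

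Between siKLF5 and control cells none of the 4 members was called by edgeR in either treatment. In vehicle the fall of KLF5 itself did not pass (adjusted p = 0.149, edgeR). STEAP4 in vehicle held 2 counts over the siKLF5 libraries and 6 over the control libraries, too few for a fall to be called. In vehicle, STEAP2 stood at 1475 and 1497 CPM, above the highest control library at 1442 CPM, and its log2 change of 0.066 (95% interval -0.003 to 0.13) did not pass (adjusted p = 0.409, edgeR). STEAP1 was at -0.026 (-0.11 to 0.053) and STEAP3 at -0.059 (-0.32 to 0.20) in vehicle. With R1881, STEAP1 was at -0.052 (-0.13 to 0.021) and STEAP2 at 0.0049 (-0.057 to 0.067). There STEAP3 was at -0.26 (-0.53 to 0.021) and STEAP4 at 0.034 (-0.083 to 0.15). STEAP4 stood at 268, 300 and 270 CPM there, overlapping the control range of 257 to 290 CPM. The R1881 groups did not overlap for STEAP1, at 384, 381 and 389 CPM against 395 to 413 CPM, or for STEAP3, at 14.8, 13.9 and 13.6 CPM against 16.5 to 17.2 CPM. How common such separation was among all genes is not given. In each treatment 0 of 4 members had an unadjusted p under 0.05 in edgeR, and DESeq2 and limma on log2 TPM called 0. Of all 12733 genes, 1.32% were called in vehicle and 1.38% with R1881, so few genes passed in these comparisons at all.

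The knockdowns were also set against each other over all 17 libraries. In vehicle STEAP2 was lower with siNFYA than with siKLF5 by 0.33 on the log2 scale, at -0.33 (SE 0.0352, adjusted p = 1.03e-06, edgeR), and no library of one group reached the other. There 1 of 4 members was lower and 0 were higher, where 3.64% of 12922 genes were lower and 2.35% higher. STEAP4 held 10 counts over the siNFYA and 2 over the siKLF5 vehicle libraries, too few to decide on a difference. With library totals the share of higher calls among these genes went from 39.3% to 28.6%. With R1881 STEAP2 was at -0.12 (SE 0.0316, adjusted p = 0.0253) and STEAP4 at 0.24 (SE 0.0631, adjusted p = 0.0305), where 2.33% of the genes were lower and 1.49% higher. The STEAP2 call with R1881 was lost on leaving out siKLF5 library 1 (adjusted p = 0.0796) or 3 (0.110), or siNFYA library 1 (0.0528), 2 (0.0812) or 3 (0.0569). The STEAP4 call was lost without siKLF5 library 1 (adjusted p = 0.147) or 3 (0.120), or siNFYA library 2 (0.132) or 3 (0.0716). STEAP1 was at -0.13 in vehicle (SE 0.0469, adjusted p = 0.0863) and 0.044 with R1881 (SE 0.0421, adjusted p = 0.666).

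The test of whether the R1881 change itself differed between siNFYA and control cells called 0 of 4 members in edgeR. It called 0.722% of the 12601 genes, of which 46.2% were higher (61.9% with library totals). For STEAP4 it could not decide, because the R1881 change rested on 6 control and 10 siNFYA vehicle counts. STEAP1 was at 0.14 (SE 0.0583, adjusted p = 0.341), STEAP2 at 0.13 (SE 0.0463, adjusted p = 0.203) and STEAP3 at -0.44 (SE 0.198, adjusted p = 0.372). These 3 members had an unadjusted p under 0.05; DESeq2 called 1 of the 4, STEAP2, at 0.15 (adjusted p = 0.0175), and limma on log2 TPM called 0. For siKLF5 the same test called 0 of 4 members, with 0 at an unadjusted p under 0.05 and 0 by DESeq2 or limma, where 0.0157% of 12733 genes were called. There too STEAP4 was not decided, with 2 siKLF5 vehicle counts.

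Transcripts were described where their mean reached 1 TPM in a group, which left 3 of 3 for STEAP1, 8 of 10 for STEAP2, 3 of 4 for STEAP3 and 3 of 3 for STEAP4. Transcript values rest on how shared reads were assigned, an error the tests do not see. STEAP2-202, which codes for the 490-residue protein, was the most abundant STEAP2 transcript in control cells, at 135, 141 and 138 TPM in vehicle and 188, 188 and 158 TPM with R1881. It rose with R1881 by 0.46 (SE 0.0613, adjusted p = 3.42e-04) in control cells, 0.69 (SE 0.0618, adjusted p = 1.88e-05) with siNFYA and 0.46 (SE 0.0892, adjusted p = 0.00748) with siKLF5. Of all transcripts tested, 16.3%, 16.9% and 12.4% were called in those comparisons. In siNFYA vehicle it stood at 97.2, 107 and 104 TPM, below every control library, and it fell by 0.42 (SE 0.0616, adjusted p = 0.0223, edgeR), where 0.454% of 35475 transcripts were called.

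The other STEAP2 transcripts did not pass in the siNFYA vehicle comparison. STEAP2-201, from the same start and for the same protein, was at -0.25 (adjusted p = 0.762), and STEAP2-207, for a protein of 403 residues, at -0.43 (adjusted p = 0.509). STEAP2-205, whose start carries the CCAAT letters printed above, was at -0.17 (adjusted p = 0.959). It held 5.30% of STEAP2 TPM in control vehicle and 5.59% with siNFYA (exact two-sided permutation p = 0.700, 3 against 3, where 0.1 is the smallest possible). Transcripts from the upstream start region held 89.7% in control vehicle and 88.1% with siNFYA, so the downstream start was a small part of STEAP2 in both. The 3 transcripts for the 490-residue protein together held between 69.1 and 71.3% of STEAP2 TPM as a mean in each of the 6 groups.

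**Figure D4:**
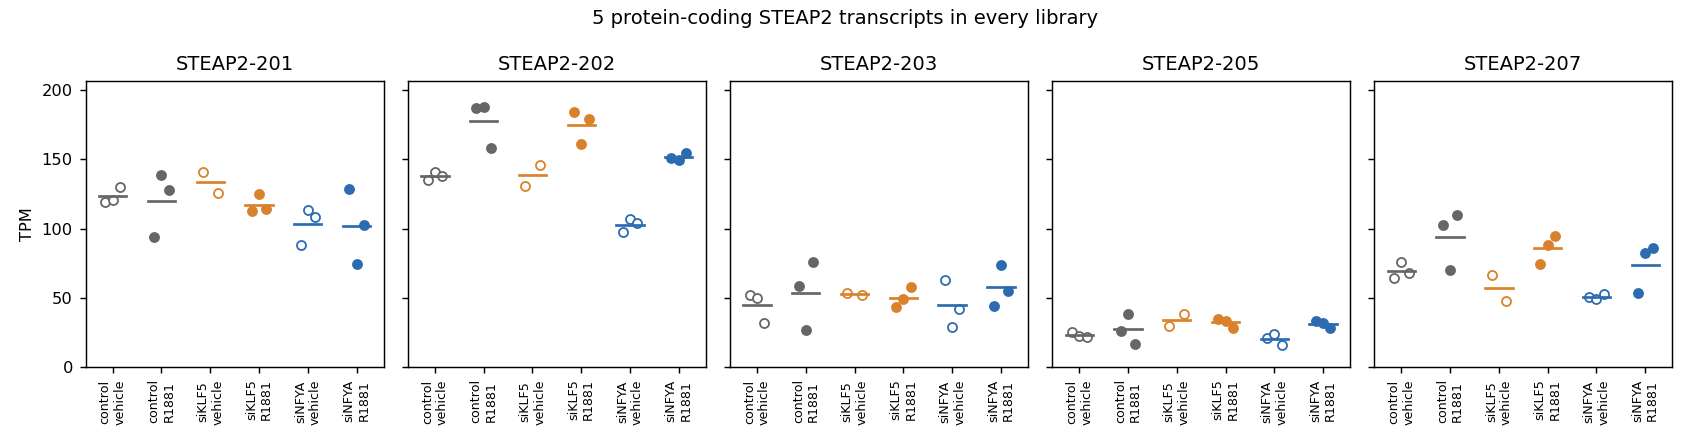
TPM, without TMM scaling, of 5 protein-coding STEAP2 transcripts in every library, with open points for vehicle, filled points for R1881 and lines for group means. STEAP2-202 is separated between vehicle and R1881 under each siRNA, while STEAP2-203 overlaps under each siRNA and STEAP2-201 overlaps with control siRNA and siNFYA.

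STEAP1-201, for the 339-residue protein, held most of STEAP1 TPM in every group. The rest belonged to STEAP1-202, annotated for nonsense-mediated decay, and STEAP1-203, a retained-intron transcript. Their combined share was 4.97 ± 0.846% (SD, n = 3) in control vehicle, 12.7 ± 2.80% in siNFYA vehicle and 11.0 ± 2.17% (n = 2) in siKLF5 vehicle. With R1881 it was 4.56 ± 1.29% in control cells, 8.37 ± 1.69% with siNFYA and 5.57 ± 1.64% with siKLF5. The siNFYA libraries lay above all control libraries in vehicle, 10.8 to 16.0% against 4.46 to 5.94%, and with R1881, 6.67 to 10.1% against 3.08 to 5.46%. The exact two-sided permutation p was 0.1 in both, the smallest that 3 against 3 allows. The siKLF5 vehicle libraries, at 9.43 to 12.5%, also lay above all control vehicle libraries (exact two-sided permutation p = 0.2, 2 against 3). They overlapped the siNFYA vehicle libraries. With R1881 the siKLF5 libraries overlapped the control libraries. The share of retained-intron transcripts over the whole library also rose from control to siKLF5 and siNFYA, as given above, and its part in this result was not tested. STEAP1-201 itself rose with R1881 by 0.24 (adjusted p = 0.00430), 0.42 (adjusted p = 8.02e-05) and 0.24 (adjusted p = 0.00407) in control, siNFYA and siKLF5 cells. With siNFYA in vehicle it was at -0.25 (adjusted p = 0.0512), and it passed at -0.30 (adjusted p = 0.0152) with no filter on low transcripts.

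**Figure D5:**
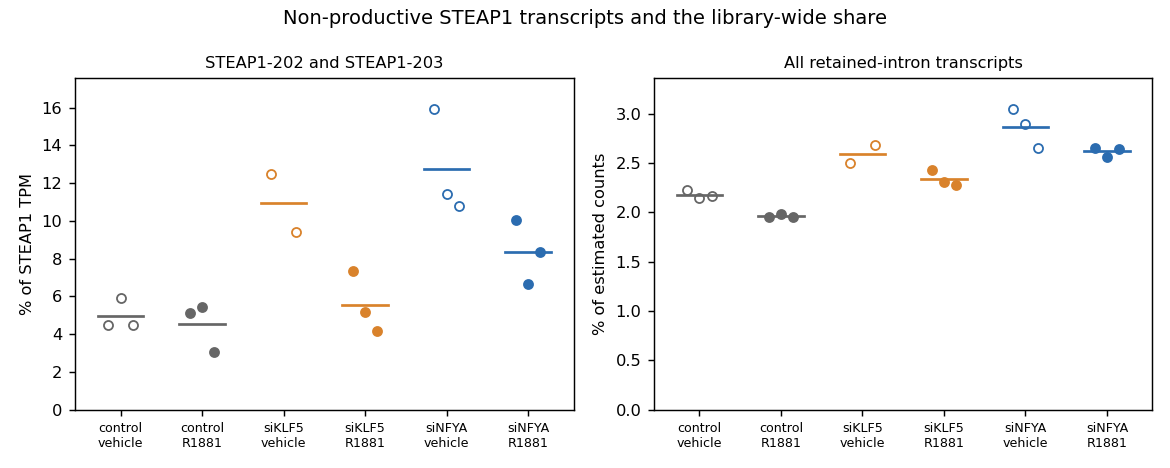
Share of STEAP1 TPM from the non-productive transcripts STEAP1-202 and STEAP1-203 (left, %) and share of all retained-intron transcripts in the estimated counts of the library (right, %), per library. Both shares are higher with siNFYA than in control cells in each treatment, and in vehicle they are also higher with siKLF5 than in control cells.

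With R1881 all 3 STEAP4 transcripts were present. In control R1881 libraries STEAP4-201, for a protein of 283 residues, stood at 48.1 TPM, STEAP4-202, for the 459-residue protein, at 26.9 TPM and STEAP4-203, for 339 residues, at 9.40 TPM. The share of STEAP4-202 was 31.9% in control cells, 32.9% with siKLF5 and 33.9% with siNFYA, with exact permutation p = 0.7 and 0.4 against control. That share depends on the unit: by estimated counts STEAP4-202, which is 9988 bases long, held 68.3% in control R1881 libraries. For STEAP3 the 498-residue transcript STEAP3-203 went from 3.99, 5.66 and 4.74 TPM in siNFYA vehicle to 1.55, 2.05 and 0.835 TPM with R1881. It fell by 1.56 on the log2 scale (SE 0.467, adjusted p = 0.0442), a call that was lost with no filter on low transcripts (-1.58, adjusted p = 0.0707). In control cells it stood at 4.48, 4.90 and 5.84 TPM in vehicle and 1.25, 1.31 and 3.93 TPM with R1881, without overlap, and the change of -1.15 did not pass (adjusted p = 0.135). With siKLF5 the groups overlapped, at 1.64 and 3.11 TPM in vehicle and 1.57 to 1.87 TPM with R1881. The split of STEAP3 between transcripts was unsteady at this level: STEAP3-203 held 54.0 to 100% of STEAP3 TPM in single control vehicle libraries.

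Genes with related roles were read from lists chosen with earlier results of these data in view. Of 8 other ferric and cupric reductases 5 were tested, and with R1881 in control cells 2 rose and 1 fell, with a median log2 change of 0.20 against -0.01 for all genes, of which 32.1% rose and 30.8% fell. CYB561D2 rose by 0.99 (SE 0.0872), CYB561, the reductase of secretory vesicles, by 0.75 (SE 0.0395), and CYB561A3, the lysosomal form, fell by 0.63 (SE 0.0662). With siNFYA in vehicle 0 of the 5 passed in edgeR, 1 had an unadjusted p under 0.05, and DESeq2 and limma called 0.

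Of 36 genes of iron uptake, storage, export and sensing 25 were tested, and with R1881 in control cells 7 rose and 9 fell (median -0.058), where 32.1% of all genes rose and 30.8% fell. SLC25A37, the mitochondrial iron importer mitoferrin, rose by 0.72 (SE 0.0638), from 61.6 to 102 CPM. The iron exporter SLC40A1 (ferroportin) fell by 1.63 (SE 0.289), from 5.33 to 1.71 CPM, HFE by 1.24 (SE 0.208), and the metal importer SLC39A8 by 0.62 (SE 0.0470). With siNFYA in vehicle 1 of the 25 rose and 2 fell in edgeR, where 6.67% of all genes rose and 6.79% fell: SLC25A37 rose by 0.38 (SE 0.0664), and SLC40A1 fell by 0.80 (SE 0.258) and NCOA4, the ferritinophagy receptor, by 0.13 (SE 0.0419). DESeq2 called 1 of the 25 there and limma on log2 TPM called 0.

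Of 22 genes of copper transport and metallothioneins 17 were tested, and with R1881 in control cells 8 rose and 2 fell (median 0.24), where 32.1% of all genes rose and 30.8% fell. The copper importer SLC31A1 rose by 0.82 (SE 0.0441), from 165 to 293 CPM, and its relative SLC31A2 by 0.84 (SE 0.199). The copper-exporting ATPase ATP7B rose by 1.07 (SE 0.106) and the mitochondrial copper chaperone COX17 by 0.76 (SE 0.0657). With siNFYA in vehicle SLC31A1 rose by 0.16 (SE 0.0465) and ATP7A fell by 0.20 (SE 0.0630) in edgeR, where 6.67% of all genes rose and 6.79% fell. DESeq2 and limma on log2 TPM called 0 of the 17 there.

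The remaining lists cover the settings in which single members are best known. All 20 androgen-induced genes, a list chosen for that direction, rose with R1881 in control cells, with a median log2 change of 3.66. Of 20 p53 targets, the class to which STEAP3 belongs, 3 rose and 12 fell with R1881 in control cells (median -0.62). BTG2, an antiproliferative gene, fell by 2.22 (SE 0.101), TP53INP1 by 2.03 (SE 0.0576) and DDB2, a DNA repair gene, by 1.79 (SE 0.190), while the death receptor gene TNFRSF10B rose by 1.70 (SE 0.0424). Of 20 genes of the NF-kB and interleukin-6 response, a setting in which STEAP4 is known to rise, 10 were tested, and with R1881 in control cells 7 rose and 3 fell (median 0.76). Of 11 exosome and secretion genes, a process STEAP3 is known to promote, 6 rose and 1 fell with R1881 in control cells (median 0.19), with RAB27A up by 2.08 (SE 0.0907) while RAB27B fell by 0.75 (SE 0.115). These counts stand beside 32.1% of all genes that rose and 30.8% that fell in that comparison. With siNFYA against control siRNA in the presence of R1881, where STEAP4 rose, 3 of the 20 androgen-induced genes rose and 3 fell in edgeR, where 2.63% of all genes rose and 3.33% fell. DESeq2 called 7 of the 20 there and limma on log2 TPM called 1. In that comparison KLK2 rose by 0.31 (SE 0.0363) and KLK3 by 0.17 (SE 0.0476), both secreted kallikreins. Over the 20 genes the median log2 change there was -0.038, with values from -0.87 to 0.31.

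Other protein-coding genes within 500 kb of a member were read for shared changes. STEAP1 and STEAP2 share 5 such neighbours, of which 4 were tested. With R1881 in control cells the tight junction gene CLDN12 rose by 0.91, and CFAP69 fell by 0.42 and GTPBP10 by 0.20. With siNFYA in vehicle, where STEAP1 and STEAP2 fell, these 4 lay between -0.085 and -0.059 with adjusted p from 0.460 to 0.552 in edgeR. Near STEAP4, ADAM22 fell by 1.52 with R1881 in control cells and DBF4 by 0.63, and SRI and SLC25A40 rose by 0.21 and 0.26. Near STEAP3, which did not rise, DBI rose by 2.47, CFAP221 by 1.71 and C2orf76 by 1.70, and PTPN4 fell by 0.67.

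The genes most like each member were found by the smallest root mean square difference between centred log2(CPM + 1) profiles over 17 libraries, among 11028 protein-coding genes of at least 5 CPM in a group. For STEAP4 they were KLK2 at 0.623, HPGD at 0.834 and KLK3 at 1.03 log2 units, with Pearson r from 0.992 to 0.997. For STEAP2 they were CPEB4, DMXL1 and STRN3, at 0.0504 to 0.0533, and STEAP1 ranked 83. For STEAP1 they were TM9SF2, GABARAP and CUL4B, at 0.0418 to 0.0465, and STEAP2 ranked 272. For STEAP3 they were NHLRC2, SRR and CCDC112, at 0.127 to 0.135. These are descriptions over libraries that share groups, and treatment differs within every profile.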

How the data were processed

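RNA of LNCaP cells was prepared with a strand-specific kit, per the labels' protocols. FastQC, Trimmomatic, kallisto, DESeq2 and the build GRCh38 are listed, without roles or versions, per the submitters' processing notes. The authors deposited estimated counts per gene, and joined fields that hold an estimated count, a TPM value and another, unnamed number that was not used, per gene and transcript. Control libraries appear with siNFYA in one pair of tables and, with identical values, with siKLF5 in the other.

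Estimated counts were rounded to whole numbers and tested in edgeR 4.0.16 (R 4.3.3; limma 3.58.1, DESeq2 1.42.0) with TMM scaling, filterByExpr, the quasi-likelihood F test with 1 coefficient per group and Benjamini-Hochberg adjustment over all genes or transcripts; calls are at adjusted p under 0.05. Each table was fitted alone, and all 17 libraries jointly for siNFYA against siKLF5. Printed CPM are TMM-scaled over all 17 libraries, and TPM carry no TMM scaling. SEs are the absolute log2 change over the root of F. Of 16 pairs of libraries within a group, 16 differed by more than counting noise, with chi-square divided by its degrees of freedom between 1.33 and 12.4. The fits were checked on simulated counts. Alternatives were DESeq2 size factors, library totals, no filter, DESeq2, limma with trend on log2(TPM + 1), estimated counts for transcript shares, compared groups only, all libraries in 1 fit and leaving out each library.

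The members, lists and tests were chosen with earlier results of these data known. Named beside the members are, per list, up to 4 called genes with the largest changes and no overlap, neighbours within 500 kb, and the 3 most similar genes.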

Additional observations from a re-analysis of the deposited data

How the results depend on the processing

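No paired analysis was possible. The sample titles number the libraries consecutively across groups and do not say which libraries of different groups belong together. The library numbers used here count within a group. Of 232 values of members under alternative settings, 212 kept their direction and side of the threshold, and of 257 values without 1 library, 229 did; the cause of the changes was not tested. With library totals, R1881 against vehicle gave STEAP1 0.061 and STEAP3 -0.30 in control cells, and STEAP1 0.026, STEAP2 0.061 and STEAP3 -0.51 with siKLF5. By limma on log2 TPM, R1881 gave STEAP3 0.034 in control cells, and STEAP1 0.034 and STEAP2 0.11 with siKLF5, of which none passed. By limma, siNFYA gave STEAP1 -0.15 in vehicle and STEAP4 0.17 in R1881, and siKLF5 gave STEAP1 0.017 and STEAP3 0.14 in vehicle and STEAP2 -0.046 and STEAP4 -0.030 in R1881. DESeq2 gave 0.15 for the STEAP2 interaction with siNFYA. STEAP2 with siKLF5 in R1881, near 0 throughout, was -0.0051 with DESeq2 size factors, -0.0052 by DESeq2, -0.0050 in 1 fit of all libraries and -2.3e-05 with no filter. STEAP1 with siNFYA in R1881 was 0.0027 with the compared groups only.

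Counts of called genes moved as follows. For siNFYA they were 953 by DESeq2 and 457 by limma in vehicle, 397 and 194 in R1881, and for its interaction 326 with no filter, 1 by limma and 59 in 1 fit of all libraries. For siKLF5 in vehicle they were 409 with no filter, 79 by DESeq2, 2 by limma, 81 with the compared groups only and 108 in 1 fit. For siKLF5 in R1881 they were 388, 91, 36 and 314 under the first 4 of these, and for its interaction 106 with no filter, 8 by DESeq2, 0 by limma and 1 in 1 fit. Among transcripts with no filter, STEAP2-202 was -0.018 and STEAP4-203 -0.0083 for siKLF5 in R1881, and STEAP2-203 -0.026 for siNFYA in vehicle.

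Without 1 library, siNFYA in vehicle gave STEAP1 -0.20 to -0.12 and STEAP3 -0.028 to 0.19, with 1065 to 1604 genes. siNFYA in R1881 gave STEAP1 -0.046 to 0.029, STEAP2 -0.15 to -0.11 and STEAP4 0.22 to 0.30, with 402 to 674 genes. siKLF5 gave STEAP3 -0.17 to 0.059 in vehicle (70 to 434 genes) and STEAP2 -0.014 to 0.020 and STEAP4 -0.023 to 0.075 in R1881 (71 to 108 genes). siNFYA against siKLF5 gave STEAP1 -0.17 to -0.10 in vehicle (225 to 1002 genes), and STEAP2 -0.14 to -0.11, STEAP3 -0.27 to 0.022 and STEAP4 0.21 to 0.30 in R1881 (241 to 398 genes). R1881 in control cells gave STEAP3 -0.16 to 0.057 and STEAP4 9.22 to 11.47, R1881 with siNFYA gave STEAP4 8.37 to 10.60, the siKLF5 interaction gave STEAP1 -0.053 to 0.011 (1 to 51 genes), and the siNFYA interaction called 43 to 264 genes. A depth of 4416653 to 6872421 counts limits values near 0, such as STEAP4 in vehicle.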
